A study of Homo sapiens with 16 samples.

Results

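A group of 244 genomic regions carried a MED1 peak in every list made from cells without auxin and in neither list made from auxin-treated cells. They were picked from 1584 regions, made by merging peaks that overlapped by at least 1 bp across 6 deposited peak lists. Presence and absence in the lists chose the members, so neither is a result here, and the members' peak heights come from the same peaks and are given as a description with no test.

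MED1 is a subunit of Mediator, the large complex that passes signals from transcription factors bound at enhancers on to RNA polymerase II at promoters. MED14 is the backbone subunit that holds the modules of the complex together. Regions with dense MED1 binding mark active enhancers and promoters, and in tumour lines they often gather in broad groups around genes that define the cell type or its growth.

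The study mapped MED1 by ChIP-seq in HCT116, a human colorectal carcinoma line, with 8 MED1 libraries and 8 inputs. Wild-type (WT) cells received DMSO as mock or Nutlin-3a for 1 h, and each of those conditions has 1 joint peak list for its 2 libraries. The edited line, OsTir1+/-;Med14-AID+/+, carries MED14 fused to an auxin-inducible degron together with the plant F-box protein OsTIR1, which sends the fusion to the proteasome once auxin is added. These cells received water as mock for 3 h, or 500 µM auxin (IAA) for 3 h, and some were then given Nutlin-3a for 1 h, which makes 4 conditions of 1 library and 1 list each. For the edited cells that got no Nutlin-3a, the labels record no hour with DMSO in its place. Nutlin-3a keeps MDM2 from binding p53 and so induces p53 signalling. WT and edited cells differ at once in line, mock treatment and number of libraries, and the labels do not say whether the edited line is 1 clone. The 6 lists held 1106 (WT DMSO), 1254 (WT Nutlin-3a), 463 (water), 522 (water and Nutlin-3a), 53 (auxin) and 66 (auxin and Nutlin-3a) peaks. They give no read totals, so depth is unknown, no spread between replicates can be had, and binding below the threshold of the calls is not seen. A region absent from the short auxin lists is therefore one with no listed peak, which does not show that MED1 was gone.

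The 4 lists from cells without auxin had 288 regions in common. Of these, 244 (84.7%) had no auxin-list peak, 31 had one in both auxin lists and 13 in 1 of them. Among all regions in both water lists, wherever they stood in WT cells, 83.7% had no auxin-list peak. The share was 87.3% of regions in at least 1 water list and 94.9% of those in at least 1 list without auxin. The share of 84.7% is the rule's own contrast and nothing is read from it. The members made up 15.4% of all merged regions. They held 265 of the 1106 WT DMSO peaks (24%) and 268 of the WT Nutlin-3a peaks (21.4%), but 275 of the 463 peaks with water (59.4%) and 276 of the 522 with water and Nutlin-3a (52.9%).

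Among the members with high folds, some lie by general knowledge of the hg19 map over the start of a known gene. These include ID1, which encodes a helix-loop-helix protein that blocks DNA binding by its partners and answers to BMP signals, and MIR31HG, the long non-coding host transcript of a microRNA. No hg19 genome was at hand to print the peaks themselves. The promoters of these 2 genes are shown instead, because the merged regions span the start sites by the same general knowledge. The folds of a member belong to its highest peak in each list, which need not cover the start. They are RefSeq sequences of the GRCh38.p14 build, 250 bases before to 50 after the start, with ID1 on the + strand and MIR31HG on the - strand. Capitals mark a match to any of 3 motifs searched on both strands, the AP-1 motif TGANTCA, the TEAD motif GGAATG and the TCF/LEF core TCAAAG.
ID1: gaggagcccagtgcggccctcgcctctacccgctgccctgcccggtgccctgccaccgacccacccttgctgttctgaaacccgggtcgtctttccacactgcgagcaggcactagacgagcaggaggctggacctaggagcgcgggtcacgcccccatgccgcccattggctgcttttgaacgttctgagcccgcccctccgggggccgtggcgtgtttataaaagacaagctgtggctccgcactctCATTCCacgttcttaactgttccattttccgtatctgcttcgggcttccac
MIR31HG: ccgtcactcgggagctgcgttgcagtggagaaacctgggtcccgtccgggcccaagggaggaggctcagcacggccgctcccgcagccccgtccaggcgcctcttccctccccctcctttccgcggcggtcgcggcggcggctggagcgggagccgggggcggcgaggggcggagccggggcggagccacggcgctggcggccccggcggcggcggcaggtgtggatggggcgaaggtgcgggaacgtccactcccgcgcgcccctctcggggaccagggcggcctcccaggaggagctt
The ID1 promoter held 1 match, to GGAATG on the opposite strand, starting at base 250 counted from its 5′ end. The MIR31HG promoter held none of the 3 motifs. Over the 35116 promoters of the table, GGAATG was found in 14%, TCAAAG in 12.9% and TGANTCA in 7.71%, so a match to GGAATG is common in windows of this length. The G and C content was 62.7% for ID1 and 77.7% for MIR31HG, against a median of 58.7% over the table. A match describes letters only, and whether these windows lie within the peak summits was not determined across the builds.

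The fold enrichment of a peak over background, as the authors' caller gave it, is used here to order peaks within a list. Where a list had several peaks in a region, the highest stands for it. The 244 members had a median fold of 4.25 in WT DMSO (quartiles 3.3 and 5.36, range 1.98 to 10.53). In WT Nutlin-3a the median was 4.75 (3.85 and 6.05, 2.15 to 12.0). With water it was 4.51 (3.88 and 5.68, 2.6 to 13.3), and with water and Nutlin-3a it was 4.66 (3.84 and 5.81, 2.66 to 11.4). Most members therefore stood in the upper part of the WT lists, with 193 in the upper 50% of WT DMSO and 202 in that of WT Nutlin-3a, and 136 and 153 in that of the water list and of the list with water and Nutlin-3a. They were seldom the highest peaks: the best rank of a member was 13, 14, 9 and 12 in the 4 lists in the same order.

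**Figure D1:**
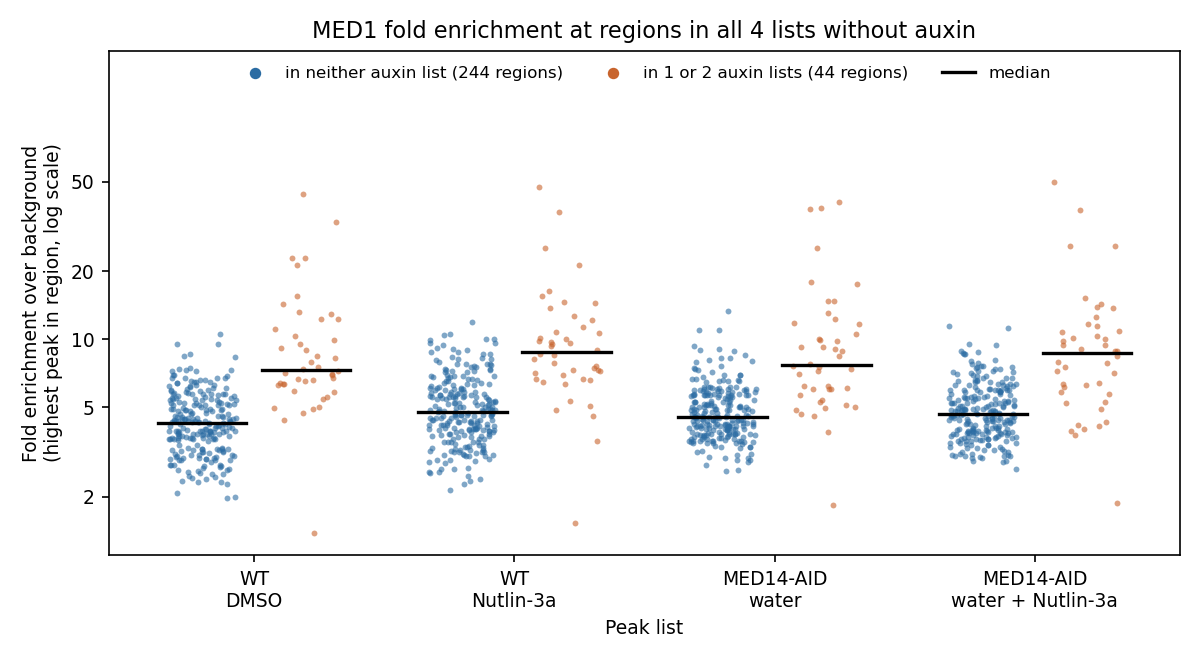
Fold enrichment over background of the highest peak in each region (log scale) in the 4 lists without auxin, for the 244 regions in neither auxin list and the 44 in 1 or both, 1 point per region, with the median as a line. The members lie between 1.98 and 13.3 in all 4 lists, and the other set reaches 49.9 and overlaps with them throughout the lower part.

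The 44 regions that were also in an auxin list had medians of 7.29, 8.77, 7.69 and 8.65 in the 4 lists. The sets overlapped. Of the members, 8 in WT DMSO, 13 in WT Nutlin-3a, 13 with water and 7 with water plus Nutlin-3a exceeded the median of those 44, and 1 did so in all 4 lists. Folds of at least 5 in all 4 lists were found for 27 members (11.1%) and 32 of the 44 (72.7%). Among the 44 highest peaks of a list, 17, 16, 16 and 16 lay in members and 26, 24, 26 and 27 in regions also listed with auxin. These heights come from the peaks the rule used and were not tested.

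Where a region that stayed listed stood among the members could differ between the WT and the water lists. On chromosome 17, the region from 57969971 to 57970736 had folds of 6.3 in WT DMSO, 5.03 in WT Nutlin-3a, 3.87 in the water list and 4.18 with water plus Nutlin-3a, and 5.51 with auxin and Nutlin-3a. It was exceeded by 27 of the 244 members in WT DMSO (11.1%), 106 in WT Nutlin-3a (43.4%), 184 in the water list (75.4%) and 158 with water plus Nutlin-3a (64.8%). It thus stood above most members in both WT lists and below most of them in both water lists, where 135 members (55.3%) exceeded it in both. The region on chromosome 1 from 142537339 to 142539567 was in all 6 lists with folds between 1.38 and 1.88, below every member in each list without auxin.

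Among the 24 highest members of a list, about the top 10%, 4 regions stood in all 4 lists. The ID1 region, chromosome 20, 30191514 to 30197583, had folds of 9.48 in WT DMSO, 10.05 in WT Nutlin-3a, 13.35 in the water list and 11.26 with water plus Nutlin-3a. It ranked 3, 4, 1 and 2 among the 244. It is a continuous peak over most of its 6070 bp in both WT lists, and it was split into 3 peaks in the water list and 2 with water plus Nutlin-3a. The summits of its highest peaks lay between 30196338 and 30196480, toward the downstream end of the region. Those peaks began at 30195833 in the water list and at 30194960 with water plus Nutlin-3a. A smaller member begins 173 bp downstream, from 30197757, with folds of 5.17, 6.83, 3.81 and 4.34, and another lies upstream, from 30160146, with 5.22, 7.26, 7.61 and 4.90.

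The second of the 4 is the widest member of all, chromosome 18, 3616374 to 3625702, 9329 bp long. Its folds were 8.34, 8.58, 9.35 and 11.41 in the order of lists above. The WT Nutlin-3a fold is that of a peak from 3621243 to 3625584. The other lists' highest peaks lay apart from it, between 3616671 and 3620108, so the folds are not those of a single site. By position the region falls inside DLGAP1, a gene known for a scaffold protein of synapses. It is the highest of 6 members spread over 72.4 kb of that gene. The other 5 had folds from 2.48 to 7.47 over the 4 lists. No auxin-list peak was found on chromosome 18 at all.

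The third covers the start of HMGA2, which encodes an architectural chromatin protein of embryonic and tumour cells. On chromosome 12, 66216342 to 66220955, its folds were 7.38, 9.59, 7.38 and 9.5. The last lies at 8q24 on chromosome 8, 128257321 to 128262462, near CCAT1, a long non-coding RNA of colorectal cancer, with folds of 7.25, 8.94, 11.03 and 8.03. A high place in both lines, with and without Nutlin-3a, is how these 4 regions were picked and is not a result.

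A further 7 members were among the 24 highest in 3 lists. The MIR31HG region, chromosome 9, 21558307 to 21561016, had folds of 10.03, 11.03 and 9.39 in WT Nutlin-3a, water, and water and Nutlin-3a, and 5.97 in WT DMSO, where it ranked 36. The type I keratin group on chromosome 17, which encodes acidic filament proteins of epithelia, held the member from 39108964 to 39113968, with 6.40, 8.27, 8.29 and 8.80. On chromosome 4, 169407757 to 169409363, just before PALLD, an actin-binding protein gene, the folds were 4.54, 8.16, 7.33 and 8.61, and the WT DMSO list was again the one with the lower rank (96). The other 4 were on chromosomes 2 (from 226928195), 6 (from 159138906), 7 (from 130528201) and X (from 45568265). In all, 27 members were among the 24 highest in 1 list only, 16 in 2 and 190 in none.

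The order of the members was most alike in the 2 WT lists and less so in every other pair, also within the edited line. Spearman's rho of the folds over the 244 regions was 0.73 between WT DMSO and WT Nutlin-3a and 0.48 between the 2 water lists. Across lines it lay between 0.42 and 0.49, a range that takes in the value of the 2 water lists. For the 44 regions also listed with auxin the 6 values were between 0.69 and 0.81. These are descriptions: the folds of a list share its library and background, the joint WT lists rest on 2 libraries each, and the 44 span a wider range of folds.

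**Figure D2:**
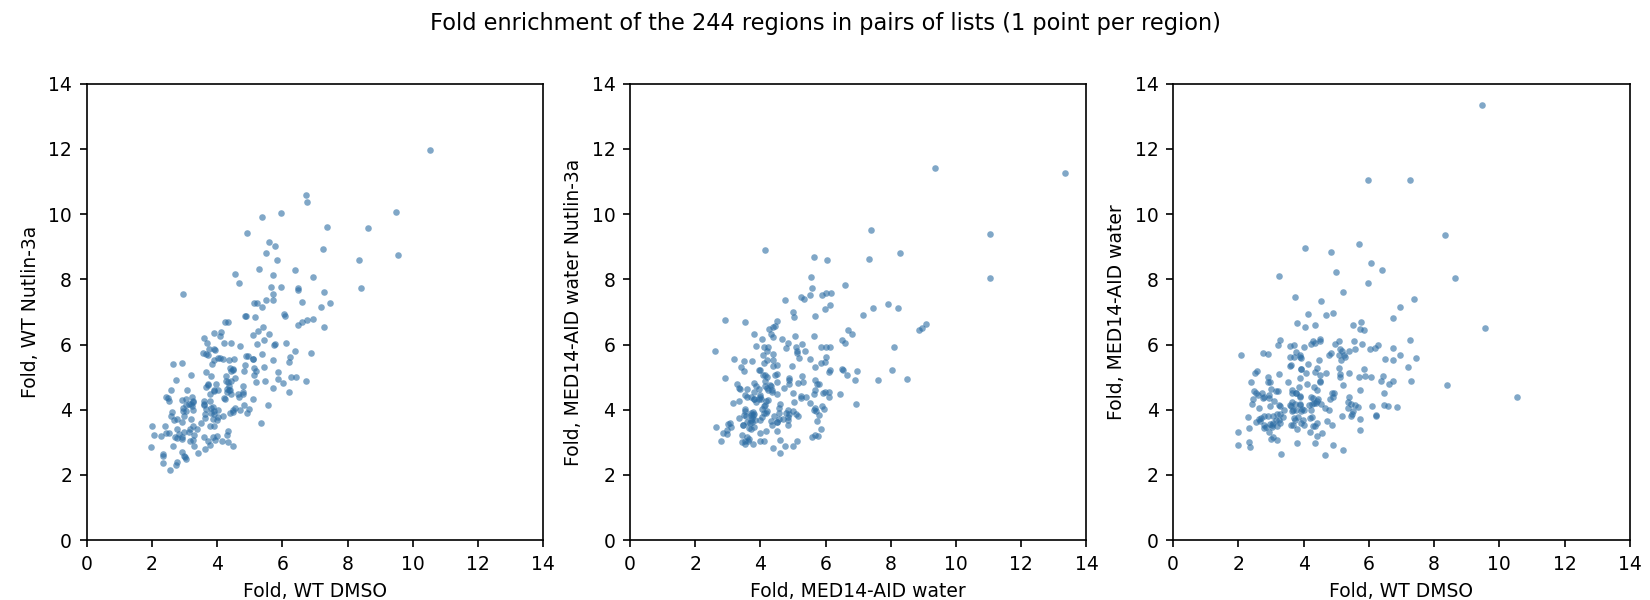
Fold enrichment of the 244 regions in 3 pairs of lists, 1 point per region, both axes linear. The points lie closest to a line for the pair of WT lists (rho 0.73) and are more scattered for the pair of water lists (0.48) and for WT DMSO against water (0.42).

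The highest member of both WT lists stood lower in both water lists. On chromosome 19, 19207511 to 19208992, inside SLC25A42, a mitochondrial carrier gene, the folds were 10.53 and 11.97 in WT cells, ranking 1 in each list, but 4.38 with water, ranking 135, and 5.52 with water and Nutlin-3a, ranking 72. By mean rank over the 2 lists of a line, the member placed furthest toward WT lay on chromosome 8, 145010650 to 145015398, with folds of 5.20, 4.84, 2.78 and 3.03. The one placed furthest toward the edited line lay on chromosome 18, 68089024 to 68091098, with 3.28, 2.88, 6.13 and 5.21. On chromosome 3, 111453529 to 111454926, the folds were 4.04, 3.77, 8.97 and 6.50. These regions are the extremes of 244 and carry no test. Line, mock treatment and number of libraries differ together between these lists and cannot be told apart.

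Summit positions were not used by the rule. Between WT DMSO and WT Nutlin-3a the highest summits of a member lay a median of 79.0 bp apart, and 148 of 244 (60.7%) lay within 100 bp. Between the 2 water lists the median was 114.0 bp, with 115 (47.1%) within 100 bp, and between WT DMSO and water it was 117.0 bp, with 113 (46.3%). For the 44 regions also in an auxin list the same medians were 36.5, 48.0 and 33.0 bp. Over all 4 lists the summits of a member spanned a median of 219.0 bp, 35 members kept all 4 within 100 bp and 43 spanned more than 500 bp. Of the 186 members with exactly 1 peak in every list, 26 still spanned more than 500 bp. The 44 also had the higher folds, given above, and the part of height in this difference was not tested.

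The sharpest agreement was on chromosome 1, 16839858 to 16841073, where the 4 summits fell within 5 bp and the folds were 9.56, 8.75, 6.51 and 5.24. A member inside the microRNA host MIR100HG, chromosome 11, 122050918 to 122052021, had its 4 summits within 19 bp at folds of 4.41, 5.29, 4.61 and 4.17. One next to MIR31HG, chromosome 9, 21564604 to 21565941, had them within 43 bp at 3.9, 4.59, 5.68 and 5.3. Tight summits were thus also seen at members of ordinary height.

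Merged regions were a median of 1738 bp wide (quartiles 1279 and 2480), from 756 to 9329 bp, and covered 512.6 kb. Those also in an auxin list had a median of 1600 bp, regions in exactly 3 of the 4 lists 1211 bp and those in both WT lists only 913.5 bp, and merging over more lists can only widen a region. The peaks themselves had a median width of 1300 bp in WT DMSO and 1480 bp in WT Nutlin-3a, and of 928 bp in the water list and 953 bp with water plus Nutlin-3a. In each list the higher of these peaks tended to be the wider ones. Over the 244 members, Spearman's rho between the fold and the width of a list's highest peak was 0.591 in WT DMSO, 0.549 in WT Nutlin-3a, 0.425 in the water list and 0.564 with water plus Nutlin-3a. With the width of the merged region in its place, rho was 0.535, 0.406, 0.0857 and 0.18. How much the wider WT peaks add to that width was not measured. In 20, 23, 26 and 29 members the list had more than 1 peak, in the order of lists used above.

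Of the members, 10 were over 5 kb, and the 5 widest include the DLGAP1 and ID1 regions. The others are on chromosome 7, 130577910 to 130584238 (6329 bp), on chromosome 11, 69061688 to 69067476 (5789 bp), and on chromosome 12, 65926022 to 65931771 (5750 bp). The chromosome 7 region had folds of 6.75, 10.38, 4.88 and 4.90, so it was high and broad in WT cells and near the members' median in the edited line.

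Members lay close together. Of the 244, 109 (44.7%, Wilson 95% interval 38.6 to 50.9%) had another member within 12500 bp, 81 (33.2%) within 5 kb and 153 (62.7%) within 50 kb. With any merged region as neighbour, 192 (78.7%, 73.1 to 83.4%) had one within 12500 bp. Of the 44 regions also listed with auxin, none had another of that set within 12500 bp, and 21 (47.7%, 33.8 to 62.1%) had any merged region there. Of the 135 regions in 3 of the 4 lists, 26 (19.3%, 13.5 to 26.7%) had another of their set and 89 (65.9%, 57.6 to 73.4%) had any merged region, an interval that reaches that of the members. Of the 348 regions in both WT lists only, these were 73 (21.0%, 17 to 25.6%) and 158 (45.4%, 40.2 to 50.7%). The sets differ in size, which alone changes the chance of a neighbour of the same set. The intervals cover counting only, neighbouring regions are not independent, and no test was made.

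**Figure D3:**
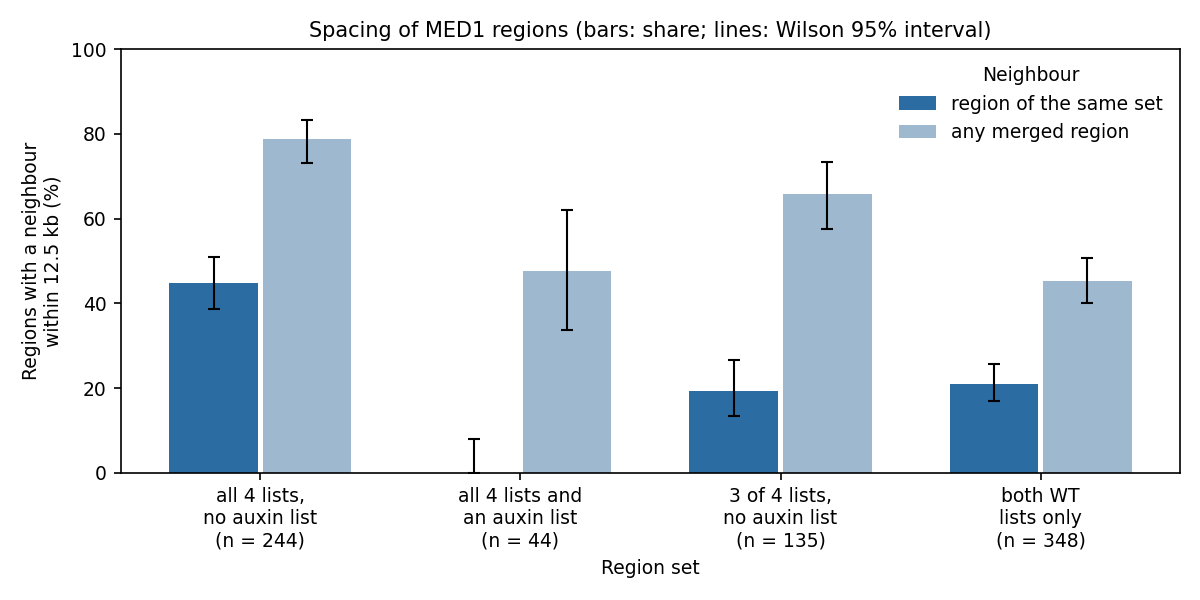
Share of regions (%) with a neighbour within 12500 bp, for 4 sets of regions, with the same set or any merged region as the neighbour. Bars are shares and lines are Wilson 95% intervals; the members have the highest share with either kind of neighbour, 44.7% and 78.7%.

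Joining members at most 12500 bp apart gave 179 groups, of which 135 held 1 member, 26 held 2, 15 held 3 and 3 held 4. The 3 groups of 4 were on chromosome 3 (111622869 to 111644054), chromosome 6 (159118377 to 159144448) and chromosome 8 (128257321 to 128279465), each 21.2 to 26.1 kb long. The chromosome 3 group was low, with folds between 2.15 and 4.74 over the 4 lists. The other 2 reached 9.58 and 11.03. Within 50 kb, the longest chain had 7 members over 86.2 kb, at 8q24, followed by 6 members each around MIR29A (76.8 kb) and in DLGAP1 (72.4 kb).

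**Figure D4:**
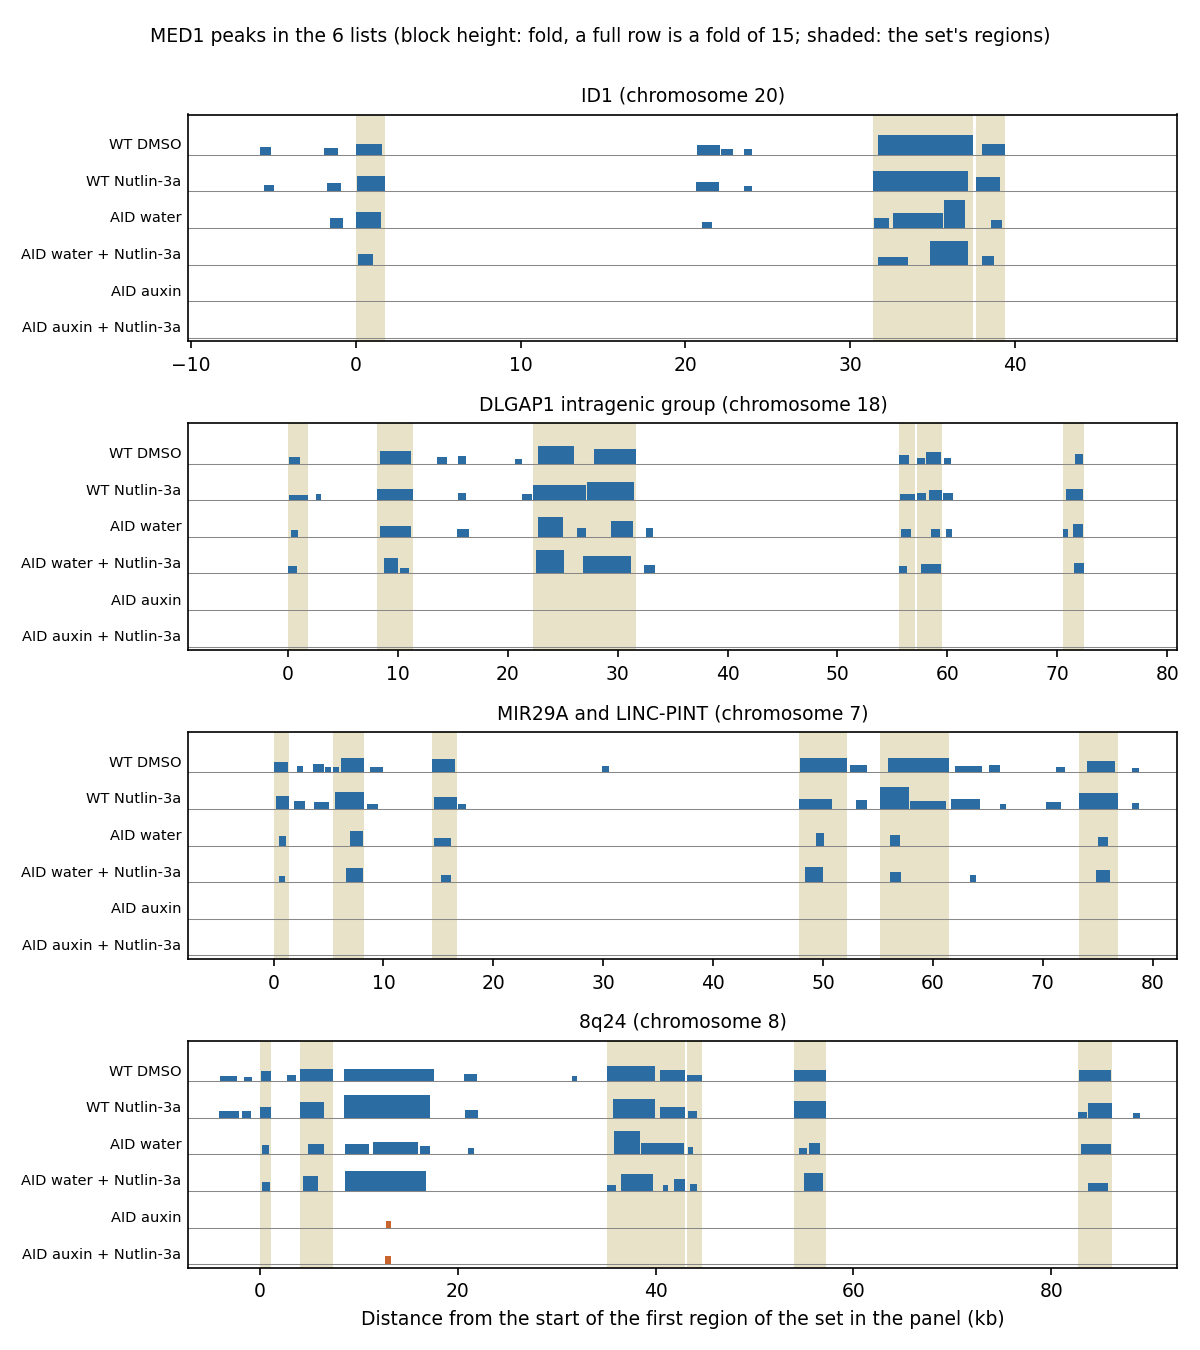
Peaks of the 6 lists at 4 groups of members, by distance (kb) from the first member in the panel. Each block is a peak, its height is its fold (a full row is a fold of 15) and shading marks the members; auxin rows are empty except at 8q24, where both hold a peak between 2 members.

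The 8q24 chain lies upstream of MYC, the growth-driving transcription factor gene. Its folds ran from 2.84 to 7.25 in WT DMSO, 3.26 to 8.94 in WT Nutlin-3a, 3.46 to 11.03 with water and 3.52 to 8.69 with water and Nutlin-3a. The member at MYC itself, 128745910 to 128750789, was nearly level over the lists, with 5.78, 6.02, 6.02 and 5.62. Between members of the chain lies a region that was in all 6 lists, 128230681 to 128239847, with folds of 5.81 and 10.8 in WT DMSO and WT Nutlin-3a. The member from 128226267 to 128229579 ended 5.33 kb from an auxin-list peak. Its own folds were 5.7, 7.54, 4.99 and 7.0.

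Around MIR29A, the gene of a miR-29 family microRNA, 6 members had folds of 5.21 to 6.94 in WT DMSO and 4.87 to 10.38 in WT Nutlin-3a. With water they ran from 3.83 to 7.14 and with water and Nutlin-3a from 2.88 to 7.53. Of these, 2 lay within 50 kb of LINC-PINT, a long non-coding RNA that p53 can induce, and 2 further members did. None of the 17 merged regions within 50 kb of MIR29A was in all 4 lists and an auxin list as well.

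At EZR, which encodes the membrane and actin linker ezrin, and its neighbour SYTL3, a vesicle transport gene, 6 members stood on chromosome 6. In both WT lists the highest was 159138906 to 159144448, with folds of 8.63, 9.58, 8.04 and 5.22 over the 4 lists. In the water list it was the member from 159124502 (8.51), and with water plus Nutlin-3a that from 159273501 to 159276028. The latter had 5.59, 9.13, 4.14 and 8.89, ranking 50, 10, 157 and 5 among the 244. A region in all 6 lists, 159149378 to 159153154, lay between members there as well. Its folds were 15.59, 14.56, 14.74 and 14.32 without auxin, and 6.28 and 6.84 in the 2 auxin lists. At PCDH7, a protocadherin gene on chromosome 4 with 29 merged regions, 9 were members, with folds from 2.48 to 9.42 over the lists. Of the others, 1 was in all 6 lists.

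The distance to an auxin-list peak was measured for the 230 members on a chromosome that had one. The other 14 were on chromosomes 18 and X. The median was 5370 kb, the shortest was 2.63 kb, and of all 244 members 3 lay within 5 kb, 13 (5.33%) within 12500 bp and 40 (16.4%) within 50 kb. The closest was on chromosome 12, 65887970 to 65891468, with folds of 3.9, 4.57, 5.63 and 3.99.

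A list of 67 known loci, placed by general knowledge of hg19, was searched for members within 50 kb. Of these, 31 had any merged region and 15 had a member, and together they took in 48 of the 244 members (19.7%). The same was found for 161 of all 1584 merged regions (10.2%), 8 of the 44 also listed with auxin (18.2%), 24 of the 135 in 3 of the 4 lists (17.8%) and 35 of the 348 in both WT lists only (10.1%). The share of members was thus near that of the 44 and of the 135, and some loci were listed with earlier results known. Of 12 genes that p53 induces (among them CDKN1A, MDM2 and BTG2), none had a member, and 3 had any merged region. Of 6 YAP and TEAD targets such as CYR61 and CTGF, none had a member and 1 had any region. Of 10 genes of the BMP and TGF-beta response, 3 had any region and 2 a member. Of 7 Wnt targets, 4 had any region and 2 a member. For 13 AP-1 and ERK response genes these were 7 and 2, and for 8 epithelial transcription factors 4 and 2. A last group of 11 loci, named because earlier results of these data had pointed to them, had any region at 9 and members at 7. Regions in all 4 lists and an auxin list stood at 5 loci of this last group. The same held for 1 AP-1 and ERK gene, 1 epithelial factor and no gene of the other 4 groups.

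By role, the BMP response genes were ID1 and ID2, the latter a close relative of ID1, whose 2 members had folds of 3.20 to 5.56 over the 4 lists. The Wnt targets were MYC and CCND1, the gene of the cyclin that drives entry into S phase. CCND1 had members from 69451296 (4.48, 2.90, 5.51 and 4.2) and from 69455204 (3.14, 4.19, 3.68 and 3.58) on chromosome 11. The growth factor response genes were PHLDA1, with members from 76371050 (5.77, 9.02, 6.68 and 6.45) and 76423931 (4.80, 4.48, 4.34 and 3.64) on chromosome 12, and IER3, whose 2 members had folds of 2.78 to 6.29. PHLDA1 and IER3 are both switched on early after growth signals. Within 50 kb of IER3, 1 region was in all 4 lists and in both auxin lists, chromosome 6, 30736145 to 30738566. Its folds were 6.86 with auxin and 5.17 with auxin and Nutlin-3a.

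The epithelial factors were EHF, an ETS-family gene, and GRHL3, a grainyhead gene of barrier formation. At EHF the member from 34706522 to 34707442 on chromosome 11 was among the highest with water (8.85, rank 7) and had 4.83, 5.18 and 6.45 in WT DMSO, WT Nutlin-3a, and water and Nutlin-3a. The second EHF member, from 34661059, had 2.72, 3.17, 4.50 and 3.61. Within 50 kb of EHF, 1 region was in all 4 lists and an auxin list, from 34620674, with a fold of 4.59 with auxin and Nutlin-3a. GRHL3 had 1 member, from 24691158 on chromosome 1, with 3.17, 3.42, 3.50 and 5.18. The type II keratin cluster on chromosome 12, which encodes the basic filament proteins, held 6 members among 28 merged regions, with folds of 2.58 to 7.55, and 2 regions that were in all 4 lists and an auxin list.

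By chromosome, members were most frequent on chromosome 12 (30, or 12.3%), 2 (26, 10.7%), 8 (25, 10.2%) and 4 (20, 8.2%). Regions in any list without auxin stood at 8.48%, 6.77%, 8.41% and 6.83% on these. Of the regions on chromosome 18, 37.0% were members (10 of 27), and of those on X 36.4% (4 of 11), against 15.4% of all merged regions. Those on chromosome 18 lie close together, from 3594059 to 3666482 and from 68024717 to 68091098. On chromosome 17 only 8 of 123 regions (6.5%) were members, and on chromosome 1 10 of 114 (8.77%). None were on chromosomes 21 or Y.

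**Figure D5:**
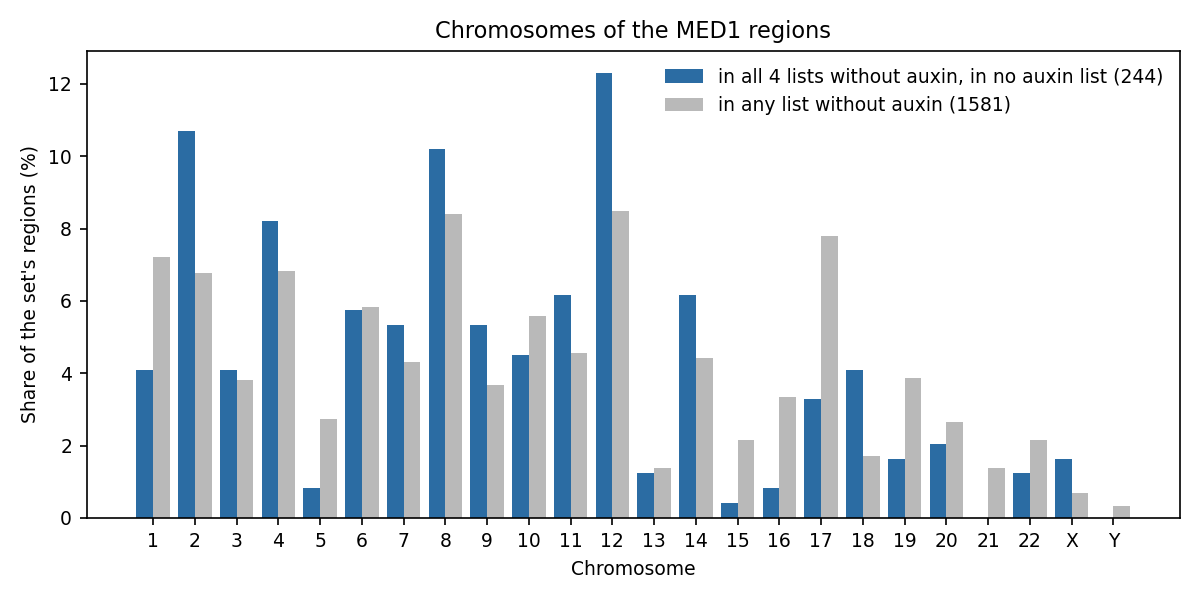
Share (%) of the 244 members and of all 1581 regions in any list without auxin that lie on each chromosome. Chromosomes 12, 2, 8 and 4 hold the most members, and chromosomes 1 and 17 hold fewer members (4.1% and 3.28%) than of all regions (7.21% and 7.78%).

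At the edges of the rule, the members just inside were those with the lowest −log10 q in any of the 4 lists. The lowest was on chromosome 2, 81884748 to 81885845, with 2.01 with water and Nutlin-3a and 10.86, 8.25 and 8.76 in the other lists. Next came chromosome 2 from 182813131 (2.09), chromosome 14 from 68942723 (2.21), chromosome 1 from 164717116 (2.26) and chromosome 14 from 54420489 (2.79), each at its lowest in WT DMSO. The rule passes such regions because only presence counts.

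Just outside were 135 regions in neither auxin list and in 3 of the 4 others, of which 71 lacked a peak with water, 50 with water and Nutlin-3a, 11 in WT DMSO and 3 in WT Nutlin-3a. The 71 had median folds of 3.3, 3.91 and 3.95 in the lists that held them, below the members' medians. On the side of auxin, 13 regions had a peak in 1 auxin list, 12 of them with auxin and Nutlin-3a and 1 with auxin alone, at folds of 3.47 to 6.29 there. The lowest of these in the auxin lists was chromosome 8, 130718818 to 130724361 (3.47), which had 7.37, 7.63, 7.22 and 10.02 in the 4 lists without auxin. The 1 listed with auxin alone, chromosome 9, 21589269 to 21592541, lies within 50 kb of MIR31HG, past the members there. It had 6.41, 6.48, 6.01 and 5.73 without auxin and 3.65 with it. The highest was chromosome 11, 65188346 to 65191266, at NEAT1, the paraspeckle RNA gene, with 7.07, 16.30, 8.88 and 12.59, and 6.29 with auxin and Nutlin-3a.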

How the data were processed

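The peak lists were deposited by the authors. Bowtie 0.12.9, MACS2 2.1.2 and hg19 are named in the submitters' processing notes, with settings not given in the sources used here. Per the labels, a WT list covers the 2 libraries of its condition and a MED14-AID list covers 1. The fold enrichment in the authors' lists is a ratio over background. The deposited −log10 values used are those of q. The authors' score is the same quantity times 10 with the decimals dropped, and was not used further. The summit is the deposited offset from the start of a peak. Positions are hg19 and 1-based.

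Peaks were merged at an overlap of 1 bp, which bedtools 2.31.1 gave for 1584 of 1584 regions as well. On simulated lists made from WT DMSO positions, 100 of 100 regions in neither auxin list were recovered. Those positions were kept far apart, with a single peak per list near a common centre. Crowded regions like many of the members were thus not tried. Tables were made in Python 3.11.15 (pandas 2.3.3, numpy 2.4.6) and plots with matplotlib 3.10.9, with scipy 1.17.1 for intervals and correlations. The members, gene lists and naming rule were chosen with earlier results of these data known. The rule named the 8 members with the highest fold per list, the 5 widest, groups of 4 or more within 12500 bp, regions at the edges and members within 50 kb of a listed locus, and the text gives those that lead. Loci were placed from general knowledge of hg19, since the gene table used has GRCh38 positions. Of 76 loci, 74 have their symbol on the stated chromosome there, and the other 2 are keratin clusters. DLGAP1, CCAT1, PVT1, HMGA2, SYTL3, PALLD, SLC25A42, ONECUT3 and the type I keratins were added after the values were seen. So were the regions at the extremes of rank between lines, those with the tightest summits and the chromosome 17 and 1 regions set against the members. The width of a list's own peak was set against its fold after that of the merged region had been seen. No test was made, since each condition has 1 list.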

Additional observations from a re-analysis of the deposited data

How the results depend on the processing

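Of 74 alternative values, all planned, 63 stayed within 1.5 times the count or within the 95% interval of the share, median or correlation. They include the values for autosomes and X only, which could not move because no member lies on chromosome Y. The number of members was 163 with peaks up to 12500 bp apart merged, 315 with no condition on the water list and 99 where each of the 4 lists without auxin had to reach a −log10 q of 10, a limit that can only remove members. With peaks up to 1 kb apart merged, the median width was 2132 bp and the share with a neighbouring member within 12500 bp was 37.0%, since close members became 1 region. That share was 33.2% within 5 kb, 62.7% within 50 kb and 78.7% with any merged region as neighbour. With −log10 q of at least 5 without auxin, the median fold with water was 4.85. With −log10 q in place of fold, Spearman's rho was 0.858 between the WT lists and 0.596 between the water lists. With peak centres in place of summits, the median distance was 127 bp between the WT lists and 141 bp between WT DMSO and water. For the fold, the rho and the peak centres the cause was not tested. No paired analysis was possible because the 2 libraries of each WT condition share 1 list and the other conditions have 1 library each. Depth is unknown, so fewer reads and less MED1 in the auxin lists cannot be told apart.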
